A study of Oryza sativa with 2 samples.

Results

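Auxin response gene families were compared between 1 array of rice leaves with yellow tips and 1 array of green rice leaves. The genes were chosen by name, from symbols and synonyms in the RefSeq gene table. A gene belonged to the set where a name, without a leading Os, consisted of IAA, ARF, GH3, SAUR or PIN followed by a number. The names gave 58 genes of the 17905 that had at least 1 probe set of their own on the array: 26 Aux/IAA genes, 17 auxin response factors (ARF), 9 GH3 genes, 1 SAUR gene and 5 PIN genes. They were read by 72 probe sets, each a group of short probes reported as a single value. Some loci list a name that another locus also carries (IAA13 is also listed as IAA1, and ARF18 as ARF10), and each locus has a single name here. A further 12 genes with such names, among them ARF5, ARF6 and ARF19, had no probe set listed and were not analysed here.

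The yellow leaf tip array held RNA from leaves of recombinant inbred lines called F9Y, labelled mutant, at the vegetative stage. The green array held RNA from leaves of recombinant inbred lines called F9G, labelled normal green, with a green leaf tip at the same stage. Recombinant inbred lines are fixed by inbreeding from a cross, and the series concerns the early-senescing mutant SA0420. For both arrays the title names leaves and the description a leaf tip, so the part of the leaf that was taken is not settled. The number of plants or lines behind each array is not settled either. Yellow leaf tips and green leaves serve below as names of the arrays and do not mean a tip against a whole leaf. There was 1 array per group, so every difference below is a difference between these arrays, without a replicate check and without a test, and their number limits the precision. The arrays differ in line, F9Y against F9G, as well as in leaf colour, and these cannot be told apart.

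Auxin acts through a short chain of proteins. Aux/IAA proteins bind auxin response factors, which sit on the promoters of auxin-responsive genes, and hold those genes down together with corepressors. Auxin brings Aux/IAA proteins to a ubiquitin ligase for destruction and so frees the response factors. Many Aux/IAA, GH3 and SAUR genes are themselves switched on within minutes of auxin treatment, and GH3 enzymes join auxin to amino acids, which lowers the pool of free hormone. PIN proteins carry auxin across membranes. In leaves, auxin is best known for its part in growth and vein formation, and it has also been studied in leaf senescence.

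Signals were compared as log2 of the deposited intensity plus 22.6, yellow leaf tip minus green, and centred so that the middle probe set had a difference of 0. A probe set was kept where the mean of both arrays reached the median over all rice probe sets, 86.0. This left 44 of the 58 genes, which are called measured here, beside 14697 kept genes in all. A gene was counted as higher or lower where the log2 difference reached 1 in size, which is 2-fold. Over all kept genes 5.57% were higher and 3.18% lower by this rule, and 43.4% had a difference below 0. The only error the files hold is the disagreement between probe sets of the same gene. Kept probe sets were split by signal into 5 bins, and the SD was 0.66 on the log2 scale in the dimmest bin and 0.36 in the brightest.

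The leaf labels were set against marker genes. All 5 measured leaf mesophyll genes had lower signals in yellow leaf tips (median log2 difference -0.50), none of them by 2-fold. That median is the value of RBCS, whose 4 probe sets spanned 1.15. The light-harvesting gene CAB2R was bright on both arrays, at 43925 in yellow leaf tips, against 53288 in green leaves. The senescence markers SGR and MS were higher in yellow leaf tips, by 2.48 and 2.51. The third, ICL, also counted as higher, with 272 in yellow leaf tips, against 53.1 in green leaves, where the green value was no brighter than the bacterial controls. That value was also under the filter, so ICL was kept through its yellow leaf tip signal and adds no separate check of the labels. Of the 7 seed and anther genes on the array 3 were measured, and all of those had the weaker signal in yellow leaf tips. GLUB-4 had 22.3 in yellow leaf tips, a value within the controls and under the filter, against 186 in green leaves. It was kept through its green signal. The bacterial control probe sets, which should find no target in leaf RNA, reached 56.9 for yellow leaf tips and 97.6 for green leaves. Root genes were represented by 1 measured gene of 4 on the array, IRT1, at -0.31. The part of these marker differences in the auxin gene differences was not tested. In whole leaf tissue, fewer cells of a type and less RNA per cell cannot be told apart.

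**Figure D1:**
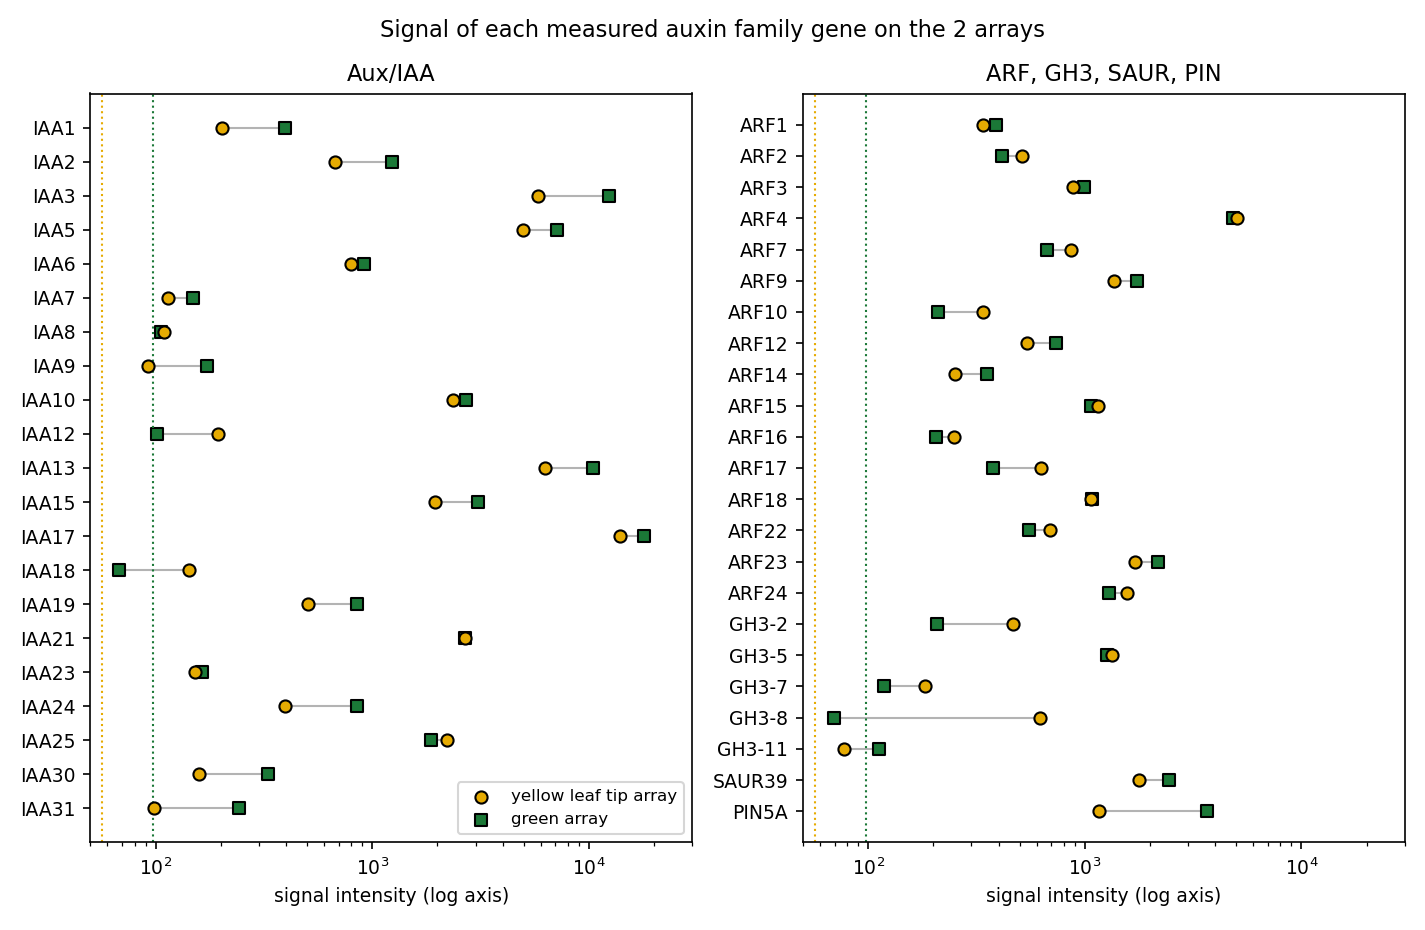
Deposited signal intensity of each measured gene (log axis) on the yellow leaf tip array (circles) and the green array (squares), with a line joining the pair. Dotted lines mark the brightest bacterial control probe set of each array, 56.9 for yellow leaf tips and 97.6 for green leaves. For most Aux/IAA genes the circle lies left of the square, while for ARF genes the order is mixed.

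Aux/IAA genes, which encode the repressors of the response, had a centred log2 difference below 0 for 15 of the 21 measured, and the median difference was -0.48. The median over all kept genes was 0.08, and 43.4% of kept genes were below 0. IAA31, IAA3 and IAA24 were lower by at least 2-fold and no Aux/IAA gene was higher by this rule. The shares over all kept genes were 3.18% lower and 5.57% higher. IAA31 had 98.5 in yellow leaf tips, against 244 in green leaves, a log2 difference of -1.09. IAA3 had 5804 in yellow leaf tips, against 12406 in green leaves (-1.04). IAA24 had 396 in yellow leaf tips, against 849.6 in green leaves (-1.01). All 3 lie close to the 2-fold line. Over the other settings IAA31 ran from -1.25 to -0.79 and IAA24 from -1.10 to -0.91. IAA3 ran from -1.11 to -0.43. Its value of -0.43 came without the filter, when a second and dim probe set (68.0 in yellow leaf tips, against 64.2 in green leaves) was averaged in.

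IAA1 was read by 2 kept probe sets. One had 53.4 in yellow leaf tips, against 159 in green leaves (-1.21), and the other 354 in yellow leaf tips, against 633 in green leaves (-0.75). The first signal in yellow leaf tips was no brighter than the controls, so -1.21 is not a measured size. The mean difference of -0.98 includes it, and the brighter probe set alone gave -0.75. IAA30 had 159.5 in yellow leaf tips, against 329 in green leaves (-0.90). It is the immediate neighbour of IAA31 in the RefSeq gene order, and both of that pair had the weaker signal in yellow leaf tips. IAA2 had 671 in yellow leaf tips, against 1229 in green leaves (-0.80).

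A middle group of 5 genes had differences between -0.71 and -0.48. IAA13, known in rice for a stable mutant form that reduces lateral roots, had 6285 in yellow leaf tips, against 10455 in green leaves (-0.68). IAA15 had 1958 in yellow leaf tips, against 3072 in green leaves (-0.59). IAA5 had 4951 in yellow leaf tips, against 7152 in green leaves (-0.48). These 3 were bright on both arrays, where probe sets of the same gene disagreed least. IAA19 had 504 in yellow leaf tips, against 847 in green leaves (-0.67). IAA9 had 92.2 in yellow leaf tips, against 172 in green leaves (-0.71).

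Smaller negative differences were found for IAA17, IAA7, IAA10 and IAA6. IAA17 had 13924 in yellow leaf tips, against 17971 in green leaves (-0.32), on a probe set whose name marks possible cross-hybridization. IAA7 had 114 in yellow leaf tips, against 149 in green leaves (-0.28). IAA10 and IAA6 differed by -0.16 and -0.15. All 4 differences were smaller than the SD between probe sets at that signal.

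The 6 Aux/IAA genes with a difference above 0 were mostly dim. IAA18 had 143 in yellow leaf tips, against 68.1 in green leaves (0.92), the green value being no brighter than the controls. That value was also under the filter, so the gene was kept through its yellow leaf tip signal. The yellow leaf tip signal was 1.46 times the brightest green control, and 0.92 is not a measured size. Its difference ran from 0.60 to 1.23 over the other settings. IAA12 had 194 in yellow leaf tips, against 101 in green leaves (0.85), with the green value just above the brightest control. IAA8 had 109.9 in yellow leaf tips, against 106 in green leaves (0.10). IAA23, which in rice is needed to keep the quiescent centre of the root tip, differed by 0.05, on 2 probe sets at 0.31 and -0.21. The first had a green signal of 85.7 that was within the controls, and the second has a cross-hybridization mark in its name. The bright exceptions were IAA25, with 2209 in yellow leaf tips, against 1862 in green leaves (0.29), and IAA21, with 2670.35 in yellow leaf tips, against 2676 in green leaves. IAA21 had a difference of 0.05 after centring and turned below 0 under 4 of the other settings.

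The lower signals of Aux/IAA genes were not limited to dim probe sets. In the brightest 2 signal bins 8 of 10 measured Aux/IAA genes were below 0, with a median of -0.40. In the dimmest 3 bins 7 of 11 were below 0, with a median of -0.67. The dimmest 2 of these bins were split, with IAA7, IAA9, IAA30 and IAA31 below 0 and IAA8, IAA12, IAA18 and IAA23 above. IAA1, IAA19 and IAA24, in the brightest of these 3 bins, were all below 0. All kept genes had medians of 0.09 in the brightest 2 bins and 0.07 in the dimmest 3, with 42.2% and 44.9% of them below 0. Set against the median and the probe-set SD of its own signal bin, 10 of 21 Aux/IAA genes lay more than 1 SD below and 2 more than 1 SD above. Those above include IAA18, whose green signal was within the controls. Those below include IAA1, whose mean holds a probe set with a yellow leaf tip signal within the controls. Neither is a measured size. Over all kept genes 19.1% lay more than 1 SD below and 19.2% more than 1 SD above. Among those below, IAA3 stood at -3.04, IAA24 at -2.67 and IAA2 at -2.41, in units of that SD. This SD covers probes, not plants, extractions or arrays.

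**Figure D2:**
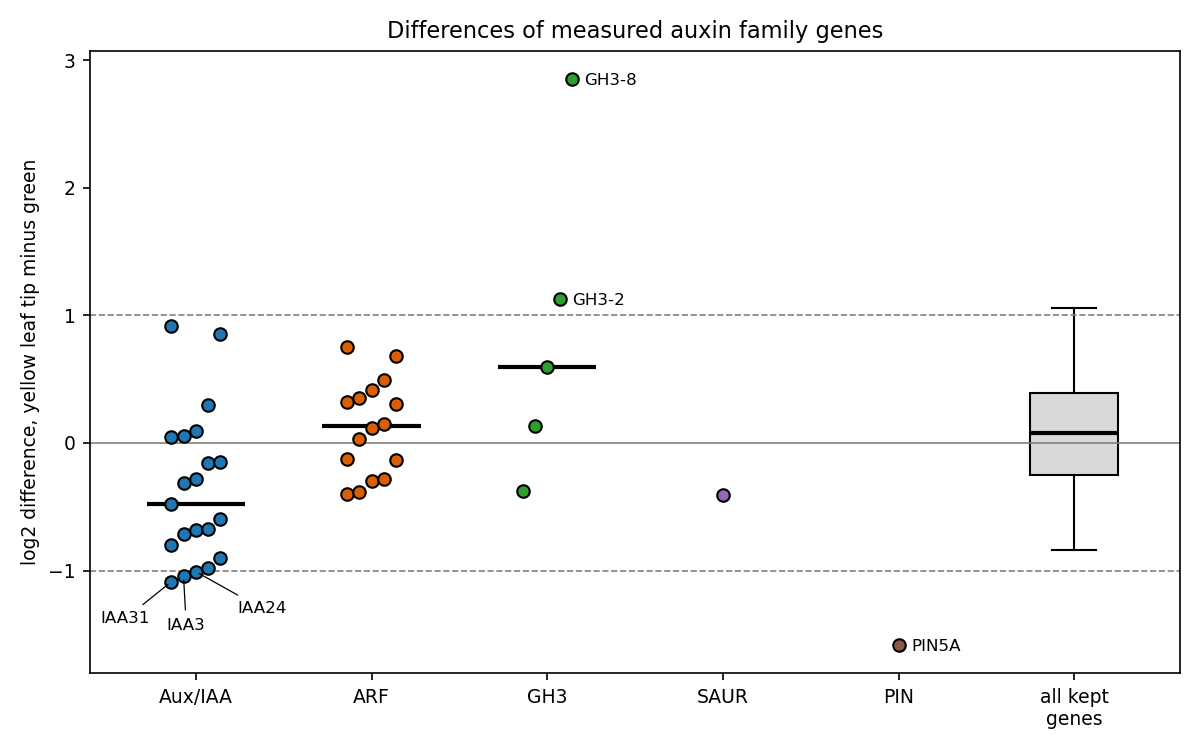
Log2 difference, yellow leaf tip minus green, of each measured gene by family (points), with the family median as a bar. The box shows the quartiles of all 14697 kept genes, its line their median and its whiskers the 5th and 95th percentiles, and dashed lines mark 2-fold. The Aux/IAA median is -0.48, the ARF median 0.13 and the GH3 median 0.59.

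Auxin response factors, the DNA-binding partners of the Aux/IAA repressors, had a median difference close to that of all kept genes. Of the 16 measured, 10 had a difference above 0 and 6 below, with a median of 0.13 beside 0.08 for all kept genes. None was higher or lower by 2-fold, beside 5.57% higher and 3.18% lower over all kept genes. The values lay between -0.40 and 0.75. Of the 21 Aux/IAA genes, 11 lay below the lowest ARF, 8 within the ARF range and 2 above the highest. Of all kept genes, 16.8% lay below the lowest ARF and 9.97% above the highest. The ARF and Aux/IAA medians differed by -0.61, Aux/IAA minus ARF, and with 1 array per group this difference was not tested.

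Among response factors of the activating class, ARF17 had 626 in yellow leaf tips, against 376 in green leaves (0.75), the highest of the family. ARF16 (LOC9270361) had 249 in yellow leaf tips, against 205 in green leaves (0.31). ARF12 had 541 in yellow leaf tips, against 738 in green leaves (-0.38). Its probe set has the mark a in its name and was left out in the setting without marked probe sets. ARF17 and ARF12 both carry a target site of the microRNA miR167 in rice, and here they lay on opposite sides of 0.

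The response factors whose transcripts are cut under the guidance of miR160 were represented by ARF10, ARF22 and ARF18. ARF10 (LOC4336419) had 338 in yellow leaf tips, against 210.2 in green leaves (0.68). ARF22 had 691 in yellow leaf tips, against 555 in green leaves (0.36). ARF18 had 1064 in yellow leaf tips, against 1078 in green leaves (0.03), and its sign turned under 4 of the other settings. The first of these was more than 1 probe-set SD above the median of its signal bin, and the others were within 1 SD.

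ARF2 and ARF15 are of the ETTIN type, which in Arabidopsis patterns floral organs and leaf sides. Other measured response factors may belong to this type, so no result is given for it as a whole. ARF2 (LOC4325895, also listed as ETTIN2) had 2 probe sets that disagreed. One had 389.7 in yellow leaf tips, against 205 in green leaves (0.91), and the other 638 in yellow leaf tips, against 624 in green leaves (0.08). The mean difference of 0.49 therefore rests on the dimmer probe set, which has the mark a in its name. The filter at the 75th percentile left the brighter one alone, at 0.01 rather than 0.08, since that filter also changes the centring. ARF15 had 1150.5 in yellow leaf tips, against 1074 in green leaves (0.15).

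The other 8 measured response factors lay between -0.40 and 0.41. ARF14 had 251 in yellow leaf tips, against 352 in green leaves (-0.40). ARF9 had 1359 in yellow leaf tips, against 1735 in green leaves (-0.30). ARF23 had 1703 in yellow leaf tips, against 2174 in green leaves (-0.28), as the mean of 2 probe sets at -0.33 and -0.23. The first has the mark a in its name and the second a cross-hybridization mark. Both were left out in the setting without marked probe sets. ARF1 (LOC4327785) and ARF3 differed by -0.14 and -0.12. ARF7 and ARF24 differed by 0.41 and 0.32. ARF4 had 5055 in yellow leaf tips, against 4835 in green leaves (0.11), as the mean of 2 probe sets at 0.07 and 0.16. The probe set at 0.07 has the mark a in its name.

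GH3-8 and GH3-2 were higher in yellow leaf tips by the 2-fold rule, and the other 3 measured GH3 genes were within 2-fold. The share of all kept genes that were higher was 5.57%. GH3-8, an enzyme of rice that joins auxin to aspartate and other amino acids, had 622 in yellow leaf tips, against 69.8 in green leaves. The green value was no brighter than the bacterial controls and under the filter, so the gene was kept through its yellow leaf tip signal and only a bound can be given. The yellow leaf tip signal was 6.37 times the brightest control of the green array. The computed log2 difference of 2.85 counts GH3-8 as higher but is not a measured size. It ran from 2.21 to 3.21 over the other settings, and GH3-8 was left out by the filter at the 75th percentile.

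GH3-2, another auxin-conjugating enzyme of rice, had 467 in yellow leaf tips, against 209 in green leaves (1.13), both above the controls, and ran from 0.95 to 1.22 over the other settings. GH3-7 had 184 in yellow leaf tips, against 119 in green leaves (0.59). The 2 dimmer probe sets of this gene gave 0.77 and -1.06, with all signals within the controls and under the filter, so neither is a measured size. Without the filter the mean difference of GH3-7 was 0.13. GH3-5 is also listed as JAR1, the enzyme that joins jasmonate rather than auxin to isoleucine. It had 1335 in yellow leaf tips, against 1262 in green leaves (0.13). GH3-11 had 77.3 in yellow leaf tips, against 112 in green leaves (-0.38), on a probe set with a cross-hybridization mark in its name. The yellow leaf tip value was under the filter, so GH3-11 was kept through its green signal. Its difference ran from -0.48 to -0.01 over the other settings.

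The family median of the 5 measured GH3 genes was 0.59, but its direction depended on the filter. GH3-1, GH3-4, GH3-6 and GH3-9 were under it, and all of them had the weaker signal in yellow leaf tips. GH3-1 had 49.0 in yellow leaf tips, against 62.2 in green leaves. GH3-6 had 15.7 in yellow leaf tips, against 35.6 in green leaves. These and both signals of GH3-4 were no brighter than the controls of their array. GH3-4 had 1.70 in yellow leaf tips, against 61.1 in green leaves. GH3-9 had 16.9 in yellow leaf tips, within the controls, against 112 in green leaves, above the brightest control. With all 9 genes the median was -0.16, with 2 genes higher and 2 lower by 2-fold. The median control signal was 13.5 in yellow leaf tips, against 21.3 in green leaves. Weaker yellow leaf tip signals within the controls are therefore not read as a direction of these genes.

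SAUR39, in rice a negative regulator of auxin synthesis and transport, was the only SAUR gene with such a name on the array. It had 1787 in yellow leaf tips, against 2458 in green leaves (-0.41), and -0.50 to -0.37 over the other settings. The difference stood at -1.24 probe-set SD from the median of its signal bin.

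Of the 5 PIN genes only PIN5A was measured. It belongs to the short PIN type, which in Arabidopsis sits in the endoplasmic reticulum rather than the plasma membrane. PIN5A had 1168 in yellow leaf tips, against 3668 in green leaves, a log2 difference of -1.58 or a fold of 2.99 lower. It ranked 108 from the bottom of the 14697 kept genes, and it ran from -1.68 to -1.54 over the other settings. Both signals were far above the controls, and the difference stood at -4.56 probe-set SD from the median of its signal bin. It rests on 1 probe set.

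The other 4 PIN genes were under the filter. PIN2, known for root gravitropism, had 37.2 in yellow leaf tips, against 93.0 in green leaves, both within the controls. PIN9 had 91.8 in yellow leaf tips, against 50.1 in green leaves. PIN5C had 53.2 in yellow leaf tips, against 14.7 in green leaves. PIN3A, which in rice has been linked to drought response, had 86.7 in yellow leaf tips, against 16.8 in green leaves on 1 probe set and 66.8 against 62.4 on the other. None of the green values of these genes was above the brightest green control.

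**Figure D3:**
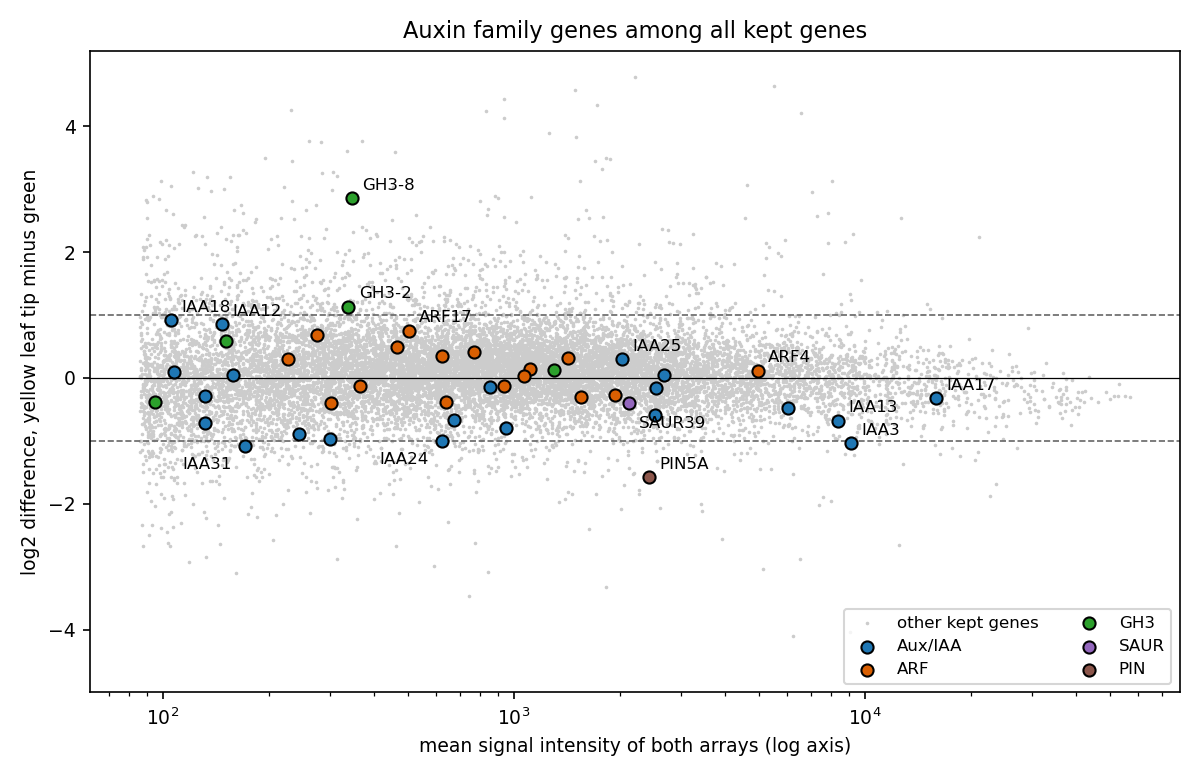
Log2 difference, yellow leaf tip minus green, against the mean signal intensity of both arrays (log axis) for all kept genes (grey) and the measured auxin family genes (coloured by family). Dashed lines mark 2-fold. GH3-8, whose green signal is within the bacterial controls, is drawn at 2.85 and PIN5A at -1.58, and Aux/IAA genes lie below 0 over most of the range of signal.

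Counted together, 2 of the 44 measured genes were higher by 2-fold, beside 5.57% of all kept genes, and 4 were lower, beside 3.18%. The higher ones were GH3-8 and GH3-2 and the lower ones PIN5A, IAA31, IAA3 and IAA24. The median over the 44 was -0.14. The 14 genes under the filter had 17 probe sets. Signals no brighter than the controls made up 12 of these in yellow leaf tips and 16 in green tissue, so no difference is given for them as a result. Across the 5 Aux/IAA genes in this group, IAA4, IAA14, IAA16, IAA20 and IAA26, no probe set passed 73.0 in yellow leaf tips or 51.8 in green leaves. ARF13, the only response factor under the filter, had 57.7 in yellow leaf tips, against 55.1 in green leaves. With all 26 Aux/IAA genes and no filter, 16 were below 0 and the median was -0.26.

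The deposited signals of the measured genes were also compared directly, without centring or a pseudocount. Among Aux/IAA genes 17 of 21 had the weaker deposited signal in yellow leaf tips, and among ARF genes 7 of 16. Of all kept genes 47.5% had the weaker signal in yellow leaf tips. The median ratio of the deposited signals, yellow leaf tip over green, was 0.69 for Aux/IAA genes and 1.06 for ARF genes.

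**Figure D4:**
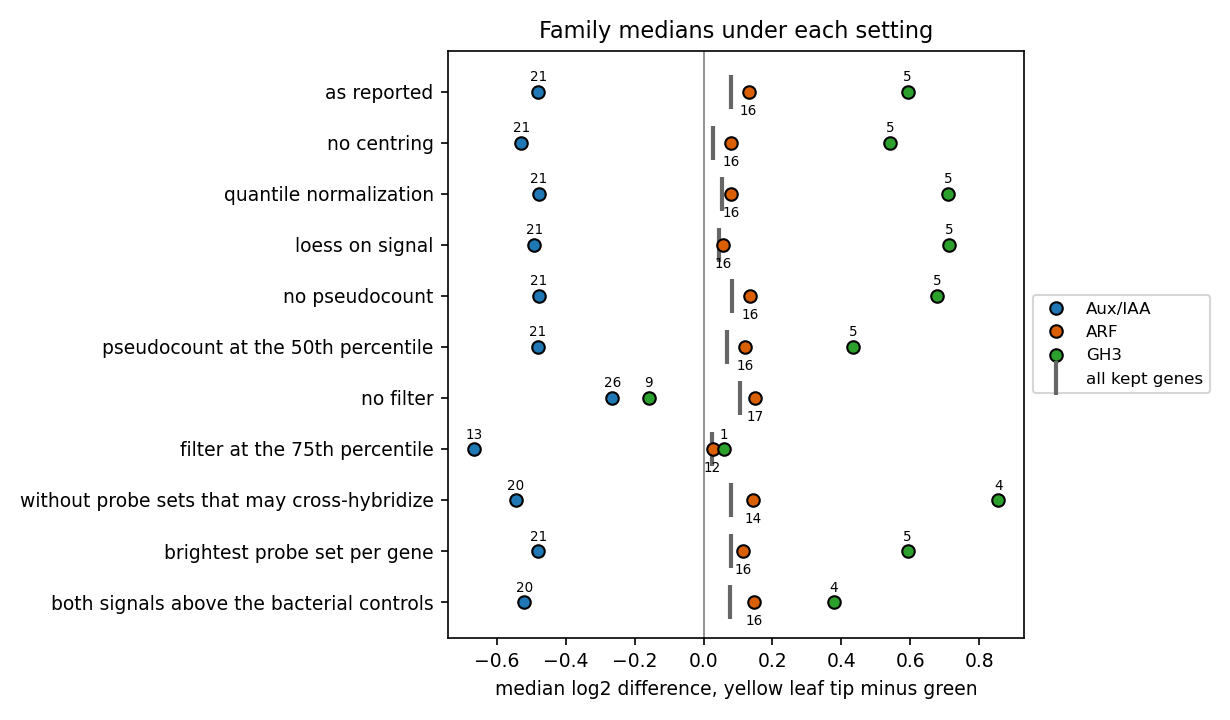
Median log2 difference, yellow leaf tip minus green, of Aux/IAA, ARF and GH3 genes and of all kept genes under each setting, with circles for families, the number of family genes beside each circle and a grey bar for all kept genes. The Aux/IAA median lies below 0 under every setting shown, from -0.66 to -0.26, the ARF median between 0.03 and 0.15, and the GH3 median on both sides of 0.

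Genes at other steps of the auxin pathway were within 2-fold, apart from a histidine kinase gene with a shared name. Of all kept genes, 5.57% were higher and 3.18% lower by 2-fold. Of the 5 measured genes for auxin synthesis, 3 were above 0 and 2 below, with a median of 0.36. FIB, which makes the auxin precursor indole pyruvate from tryptophan, had 729 in yellow leaf tips, against 484 in green leaves (0.62). The anthranilate synthase beta subunit genes, which act upstream in tryptophan synthesis, split: ASB2 had 1609 in yellow leaf tips, against 913 in green leaves (0.85), and ASB1 had 2851 in yellow leaf tips, against 4280.2 in green leaves (-0.53).

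Genes for the release or oxidation of auxin had a median of 0.07 over 7 measured, with 4 above 0 and 3 below. ILL8, an amidohydrolase gene by name that would act against GH3 enzymes, had 2090 in yellow leaf tips, against 1396 in green leaves (0.62). ILL5 was the lowest at -0.33, on 2 probe sets that differed by 0.44. DAO, the dioxygenase that oxidizes auxin, had 827 in yellow leaf tips, against 928 in green leaves (-0.11).

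TPR3, a relative of the corepressors that Aux/IAA proteins recruit, had 2096 in yellow leaf tips, against 2249.8 in green leaves (-0.05), the highest of 3 measured genes in a list of corepressors and PIN regulators with a median of -0.23. The lowest was PID, a kinase that acts on PIN proteins, at -0.26. The only measured gene matched for transport other than PIN was BG1, a regulator of auxin transport and grain size in rice, at -0.40. No receptor gene was matched to a probe set under the names searched.

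Of the 7 measured genes in the list of organ growth and root genes, 5 were above 0 and 2 below, and the median was 0.07. CRL3 was higher by 2-fold, with 915 in yellow leaf tips, against 365 in green leaves (1.32), on 2 probe sets with nearly the same difference. The gene table also lists it as HK5, a histidine kinase name, so it entered the list through a shared symbol. CRL2 and CRL4 did so too, and both were above 0. Without these 3 genes the list had 2 genes above 0 and 2 below, with a median of -0.07. The lowest of the list was the organ size gene ARGOS, with 135 in yellow leaf tips, against 182 in green leaves (-0.33).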

How the data were processed

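Per the labels' protocols, RNA was isolated with a plant RNeasy kit and made into biotinylated cRNA. The authors deposited signal intensity on a linear scale, 1 value per probe set and array. Its software and scaling: not given in the sources used here. However, each array's mean without the extreme 2% at either end was 500.1.

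Of 57381 probe sets, 123 controls were left out. The pseudocount of 22.6 was the 25th percentile of all values, the filter kept 28629 probe sets, and centring shifted differences by -0.05. Probe sets were named through the platform annotation by gene identifier and the RefSeq table of ASM3414082v1. Kept probe sets of a gene were averaged, and 2215 genes with several gave the SD (0.46 overall). Folds are on the log2(value + pseudocount) scale and understate differences of dim genes. The bacterial controls were 42 probe sets. Work was done in Python 3.11.15 with statsmodels 0.14.6 for loess, and the computation was tested on simulated data.

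The members and gene lists were chosen with earlier results of these data known. Every family member could be named, and of the other lists the highest, the lowest and any gene past 2-fold. FIB, DAO, CRL2 and CRL4 were added after their values were seen, to show steps of the pathway. A planned search of sequences was not run. Alternatives were other centring, scaling, pseudocounts, filters, probe-set choices and thresholds.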

Additional observations from a re-analysis of the deposited data

How the results depend on the processing

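No paired analysis was possible because there was 1 array per group. With 1 array each, signal over background limits dim genes most, and no setting replaces replicates. The Aux/IAA median was below 0 under all 10 other settings that give a median, the ARF median above 0, and no ARF gene passed 2-fold. Of 454 other values of single genes 0 reversed past 2-fold and 4 moved by more than the SD between probe sets. The alternative that asked for both signals above the bacterial controls was chosen after seeing the data. The cause of the following changes was not tested, beyond the change in genes measured that a filter brings.

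With no filter the medians were -0.26 for Aux/IAA, -0.16 for GH3 (turned from 0.59) and 0.10 for all genes. It gave 1 higher and 1 lower Aux/IAA gene, 2 lower GH3 genes, 4 higher genes over the 5 families, and 1375 higher and 788 lower genes in all. The filter at the 75th percentile gave medians of -0.66 for Aux/IAA (12 of 13 below 0), 0.059 for the 1 GH3 gene left, -0.29 for the 5 families and 0.025 for all genes. It gave 0 higher GH3 genes, 0 higher genes over the 5 families, and 381 higher and 257 lower genes in all. A pseudocount at the 50th percentile gave 1 lower Aux/IAA gene, 1 higher GH3 gene, 1 higher and 2 lower genes over the 5 families, 261 lower genes in all and a median of 0.068 for all genes. Quantile normalization, loess and no pseudocount each gave 1 higher Aux/IAA gene. The median of all genes was 0.028 without centring, 0.053 after quantile normalization and 0.044 after loess. Without probe sets with the mark x, s or a in their names the medians were 0.85 for GH3 and -0.053 for the 5 families. With both signals above the controls the GH3 median was 0.38, and 1 GH3 gene, also 1 over the 5 families, was higher. A log2 threshold of 2 left 0 lower Aux/IAA genes, 1 higher GH3 gene, 1 higher and 0 lower genes over the 5 families, and 165 higher and 49 lower genes in all.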
